A study of Mus musculus with 4 samples.

Results

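The diversity (D) and constant (C) segments of the T cell receptor beta chain are TRBD1, TRBD2, TRBC1 and TRBC2. They are 4 of the 164 gene names in the deposited contig lists, and every assembled beta chain (TRB contig) was grouped by the D and the C segment that the authors' annotation gave it, or by the absence of one. The chains came from tumours of MC38, a mouse colon carcinoma cell line, grown in C57BL/6J mice that were given anti-PD-1, which blocks the checkpoint receptor PD-1 on T cells. One tumour group carried a p53 knockout (p53 KO) made in the MC38 line with CRISPR-Cas9, and the other was wild-type (WT) MC38. Both groups received anti-PD-1, the knockout was in the tumour cells and not in the T cells, and an untreated group was not analysed here. Whole tumours went onto the 10x Chromium 5' platform, and 1 TCR library per genotype was analysed. The number of mice behind a library and the number of knockout clones are not given in the sources used here, and the gene expression libraries of the series were not analysed here, so the T cell identity rests on the receptor chains themselves.

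A beta chain is built by joining a D to a J segment and then a V segment to that pair, with bases trimmed and added at each joint. The locus holds its segments in the order D1, the J1 cluster, C1, D2, the J2 cluster, C2. A D segment can therefore join a J that lies after it by deleting what lies between, so TRBD1 can reach both J clusters and TRBD2 reaches the J2 cluster. The C segment is joined later, by RNA splicing, to the J cluster in front of it, and both C segments encode the part of the chain that anchors it in the membrane. The D segments are rich in G and code for glycine in several reading frames, and the bases left of them lie in the middle of the third complementarity-determining region (CDR3), the loop that meets the peptide.

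The p53 KO library had 373 TRB contigs in 351 of its 392 cells, and the WT library had 340 in 326 of 408. A clonotype is the deposited clonotype identifier, represented by its TRB contig with most unique molecular identifiers (UMIs, tags that count RNA molecules). There were 230 such clonotypes in p53 KO and 240 in WT. The TRB contigs rested on 2637 UMIs in p53 KO and 2056 in WT, with a median of 5 UMIs per contig in p53 KO (range 1 to 31) and 4 in WT (range 1 to 33). The libraries shared 0 cell barcodes and 0 beta CDR3 nucleotide sequences. Some clonotypes of a library had the same beta chain: 11 chains stood in 26 clonotypes in p53 KO, and 8 chains in 18 clonotypes in WT. With 1 library per genotype no test was possible, and each share is given with its exact (Clopper-Pearson) 95% interval over clonotypes, which covers counting error only. Where a limit is given for a count of 0, it is the share that 3 counts of the total would make, beside the upper bound of the exact interval.

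All 16 D, J and C names of the beta chain matched genes in RefSeq, whose table is of GRCm38.p6 (mm10). They lie on chromosome 6. Trbd1 covers chr6:41533201-41533212 (12 bases) and is followed by the J1 cluster, whose first gene, Trbj1-1, starts after another 651 bases. Trbc1 covers chr6:41538219-41539665. Trbd2 covers chr6:41542163-41542176 (14 bases), 2497 bases past Trbc1, and lies 577 bases before Trbj2-1. Trbc2 covers chr6:41546730-41548181. The annotation thus gives the order stated above, with 8950 bases between the D segments.

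The CDR3 sequences below are from assembled chains with and without a D call, 5′ to 3′. They are the largest clonotype of each pair of D call and J cluster in each library. Capitals mark one of a pair of 7-letter words, GACAGGG and GACTGGG, which differ at 1 base. Where neither word is present, capitals mark the longest run of 4 or more G. The words were chosen after the chains had been seen. No germline D sequence was compared with the capitals, so a marked stretch is not shown to be D bases. The first 5 lines are from p53 KO and the last 5 from WT.
p53 KO clonotype19, TRBV10, TRBD1, TRBJ1-1, 3 cells: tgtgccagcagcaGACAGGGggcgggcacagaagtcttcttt
p53 KO clonotype1, TRBV1, TRBD1, TRBJ2-2, 30 cells: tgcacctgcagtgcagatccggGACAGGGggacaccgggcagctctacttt
p53 KO clonotype68, TRBV13-1, TRBD2, TRBJ2-7, 1 cell: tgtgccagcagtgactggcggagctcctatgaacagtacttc
p53 KO clonotype9, TRBV5, no D called, TRBJ1-1, 5 cells: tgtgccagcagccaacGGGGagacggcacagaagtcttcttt
p53 KO clonotype2, TRBV19, no D called, TRBJ2-1, 16 cells: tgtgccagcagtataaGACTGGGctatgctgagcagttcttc
WT clonotype3, TRBV1, TRBD1, TRBJ1-1, 7 cells: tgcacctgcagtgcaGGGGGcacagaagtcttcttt
WT clonotype16, TRBV1, TRBD1, TRBJ2-2, 3 cells: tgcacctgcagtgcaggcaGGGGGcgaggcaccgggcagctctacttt
WT clonotype4, TRBV12-2+TRBV13-2, TRBD2, TRBJ2-2, 6 cells: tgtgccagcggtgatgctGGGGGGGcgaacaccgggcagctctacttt
WT clonotype24, TRBV3, no D called, TRBJ1-1, 3 cells: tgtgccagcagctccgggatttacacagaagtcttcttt
WT clonotype8, TRBV15, no D called, TRBJ2-3, 5 cells: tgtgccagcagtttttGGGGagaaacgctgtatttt
The p53 KO clonotype68 stood first of 17 TRBD2 clonotypes of 1 cell by its identifier. It was not typical of them: it alone had 0 glycines and a longest run of 2 G, while 11 had a run of 7 G. WT clonotype4 and clonotype8 each tied with 1 other clonotype at their size. The p53 KO clonotype2, the second largest of that library, had no D call although it holds GACTGGG.

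Most beta chains of both libraries had no D call, and TRBD1 was called more often than TRBD2. TRBD1 was called in 34 of 230 clonotypes in p53 KO (14.8%, interval 10.5% to 20.0%) and in 41 of 240 in WT (17.1%, 12.5% to 22.5%). TRBD2 was called in 17 clonotypes in p53 KO (7.39%, 4.36% to 11.6%) and in 19 in WT (7.92%, 4.83% to 12.1%). No D was called in 179 clonotypes in p53 KO (77.8%, 71.9% to 83.0%) and in 180 in WT (75.0%, 69.0% to 80.3%). The intervals of the 2 libraries overlapped for each of the 3 outcomes. With the words GACAGGG and GACTGGG in place of the calls TRBD1 and TRBD2, the order was the other way. GACAGGG was in 28 clonotypes in p53 KO (12.2%) and 29 in WT (12.1%), and GACTGGG in 39 in p53 KO (17.0%) and 41 in WT (17.1%). Alpha chains, which have no D segment, had no D call in either library.

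Counted by cells, the libraries lay further apart for TRBD2 than by clonotypes, and TRBD1 was slightly more frequent in p53 KO than in WT. TRBD1 was in 67 of 351 cells in p53 KO (19.1%, 15.1% to 23.6%) and in 58 of 326 in WT (17.8%, 13.8% to 22.4%). TRBD2 was in 18 cells in p53 KO (5.13%, 3.07% to 7.98%) and in 36 in WT (11.0%, 7.86% to 15%). Cells of 1 clone are not independent, so these intervals are too narrow. One clonotype, the p53 KO clonotype1 printed above, held 30 of the TRBD1 cells, and with the largest clonotype of each library left out, TRBD1 was in 37 of 321 p53 KO cells (11.5%, 8.25% to 15.5%) and 51 of the 319 WT cells (16%, 12.1% to 20.5%).

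TRBC2 was the more frequent C segment in both libraries. TRBC1 was called in 69 of 230 clonotypes in p53 KO (30.0%, 24.2% to 36.4%) and in 66 of 240 in WT (27.5%, 22.0% to 33.6%). TRBC2 was called in 161 clonotypes in p53 KO (70.0%) and in 173 in WT (72.1%, 65.9% to 77.7%). The intervals overlapped. By cells, TRBC1 was in 82 of 351 p53 KO cells (23.4%, 19.0% to 28.1%) and in 86 of the 326 WT cells (26.4%, 21.7% to 31.5%), so p53 KO was slightly above WT by clonotypes and slightly below by cells, each time with overlapping intervals. A missing C was rare: 1 contig of p53 KO (1 UMI) and 2 contigs of WT (2 UMIs and 1 UMI) had none. Among clonotypes, 0 of 230 in p53 KO lacked a C, which allows a share of up to 1.30% by 3 counts (exact bound 1.59%), and 1 in WT did.

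The C segment followed the J cluster without exception in the chains that had a C call. All 230 clonotypes in p53 KO and all 239 with a C call in WT paired a TRBJ1 gene with TRBC1 or a TRBJ2 gene with TRBC2, 469 of 469 in all (99.2% to 100%). The C share is therefore the same measurement as the J cluster share, apart from the WT clonotype with no C. Cells of 1 beta chain have the same J gene, so agreement of their C calls is not separate from the match above. Of 43 beta chains found in 2 or more p53 KO cells, 42 had the same C call in each cell, and of 52 in WT, 51 did. The exceptions are chains with 1 contig that lacked a C call, the p53 KO clonotype19 and the WT clonotype3.

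D calls also kept to the order of the locus. TRBD2 with a TRBJ1 gene, which would run against that order, occurred in 0 of 69 TRBJ1 clonotypes in p53 KO, which allows a share of up to 4.35% by 3 counts (exact bound 5.21%), and in 0 of 66 in WT, which allows 4.55% (exact bound 5.44%). Over both libraries the count was 0 of 135, which allows 2.22% (exact bound 2.70%). All 17 TRBD2 clonotypes in p53 KO and all 19 in WT had a TRBJ2 gene and TRBC2. TRBD2 made up 10.6% of the 161 TRBJ2 clonotypes in p53 KO (6.27% to 16.4%) and 10.9% of the 174 in WT (6.70% to 16.5%).

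TRBD1 was joined to both clusters. It was called in 18 of 69 TRBJ1 clonotypes in p53 KO (26.1%, 16.3% to 38.1%) and in 17 of 66 in WT (25.8%, 15.8% to 38%). In TRBJ2 clonotypes it was called in 16 of 161 in p53 KO (9.94%, 5.79% to 15.6%) and in 24 of 174 in WT (13.8%, 9.04% to 19.8%). Of all TRBD1 clonotypes, 47.1% in p53 KO (29.8% to 64.9%) and 58.5% in WT (42.1% to 73.7%) had a TRBJ2 gene. By cells that share was 70.1% of 67 in p53 KO and 50.0% of 58 in WT, with the 30 cells of clonotype1 among the p53 KO cells.

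**Figure D1:**
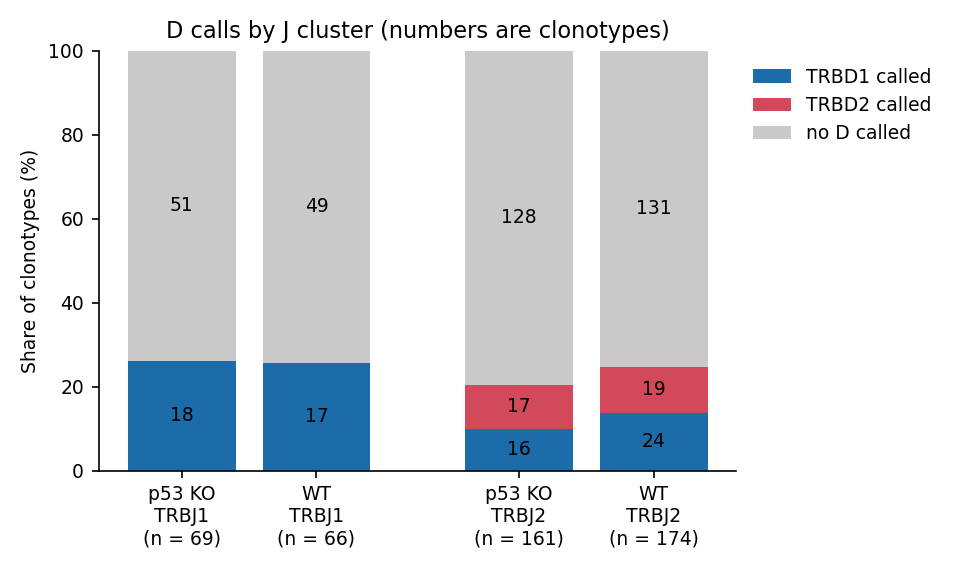
Share of clonotypes (%, vertical axis) with TRBD1, TRBD2 or no D call among TRBJ1 and TRBJ2 chains of the p53 KO and the WT library, with the numbers of clonotypes written in the bars. TRBD2 is absent from the TRBJ1 bars of both libraries, and no D call is the largest share in each bar.

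Within the clusters, the share of chains with a D call varied from one J gene to the next. Over both libraries, TRBJ2-5 had the highest share of all J genes, with a call in 35.6% of 59 clonotypes (23.6% to 49.1%). Of its clonotypes 11 were TRBD1, 10 were TRBD2 and 38 had no call. Of all 335 TRBJ2 clonotypes, 259 had no call. TRBJ2-7, the J gene with most clonotypes, had a call in 18.3% of 93 (11.0% to 27.6%), 7 of them TRBD1 and 10 TRBD2. In the J1 cluster, TRBJ1-1 had TRBD1 in 10 of 45 clonotypes and TRBJ1-4 in 8 of 24, against 35 of all 135. The intervals of these genes overlap, and no order among J genes is drawn from them. TRBJ1-7 and TRBJ2-6 had 0 clonotypes, and the RefSeq annotation lists Trbj2-6 as a pseudogene.

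**Figure D2:**
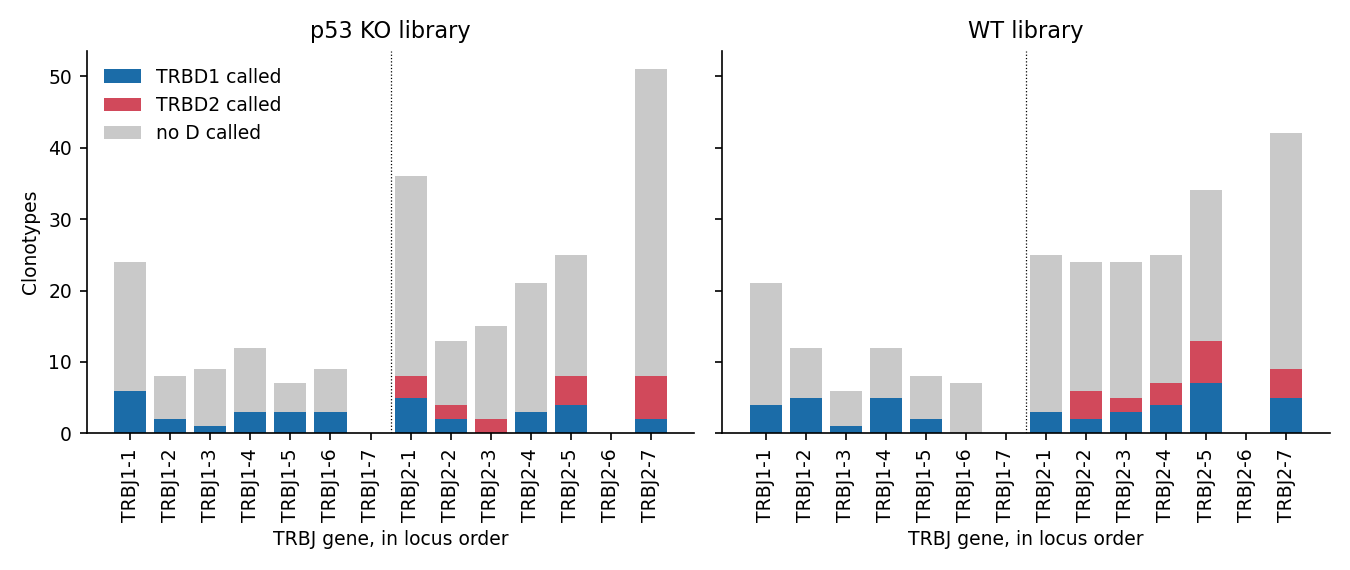
Clonotypes (vertical axis) of each TRBJ gene in locus order, stacked by D call, for p53 KO on the left and WT on the right. TRBD2 appears in the TRBJ2 genes of both panels and in no TRBJ1 gene.

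By clonotypes summed over both libraries, TRBD1 stood most often with TRBV1, in 4 of 15 of its clonotypes in p53 KO and 7 of 24 in WT. In p53 KO alone, TRBV13-1 and TRBV13-3, outside the naming rule, had more, 5 each. The joint name TRBV12-2+TRBV13-2, as the authors' annotation gives it, had TRBD1 in 4 of 24 in p53 KO and 6 of 30 in WT. TRBV3 had it in 4 of 20 in p53 KO and 5 of 31 in WT. By the same sum, TRBD2 stood most often with TRBV12-2+TRBV13-2, in 2 clonotypes in p53 KO and 5 in WT, followed by TRBV13-1 with 3 of 20 in p53 KO and 2 of 20 in WT. Next, several V genes tied at 3 clonotypes over both libraries, of which TRBV13-2, with 2 of 5 in p53 KO and 1 of 5 in WT, comes first by name. In p53 KO alone, TRBV13-1 and TRBV20 had 3 TRBD2 clonotypes each. Over all V genes of both libraries, TRBD1 was in 75 and TRBD2 in 36 of 470 clonotypes. TRBV12-2+TRBV13-2 and TRBV3 were also the V genes with most clonotypes of any D call, 54 and 51. TRBD1 was in 10 of those 54 and 9 of those 51. The counts per V gene are too small to rank within a library or by share.

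Because most chains had no D call, the CDR3 nucleotides were searched for the words GACAGGG and GACTGGG, on the coding strand only. No chain held both. The germline D sequence was not used here, so the words are named by the calls they stand with: GACAGGG is called the TRBD1-type word and GACTGGG the TRBD2-type word. GACAGGG was in 15 of 69 TRBJ1 clonotypes in p53 KO (21.7%, 12.7% to 33.3%) and, in WT, 15 of 66 (22.7%, 13.3% to 34.7%), and in 13 of 161 TRBJ2 clonotypes in p53 KO (8.07%, 4.37% to 13.4%) and, in WT, 14 of 174 (8.05%, 4.47% to 13.1%). The word thus appeared in both clusters, as the TRBD1 call did.

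GACTGGG appeared in the TRBJ2 cluster and not in the TRBJ1 cluster. It was in 39 of 161 TRBJ2 clonotypes in p53 KO (24.2%, 17.8% to 31.6%) and, in WT, 41 of 174 (23.6%, 17.5% to 30.6%), against 0 of 69 TRBJ1 clonotypes in p53 KO and 0 of 66 in WT. Alpha chains served as background: 0 of 181 distinct alpha chains in p53 KO and 0 of 269 in WT held either word. More TRBJ2 clonotypes thus held the TRBD2-type word than had a TRBD2 call, 39 against 17 in p53 KO and 41 against 19 in WT.

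**Figure D3:**
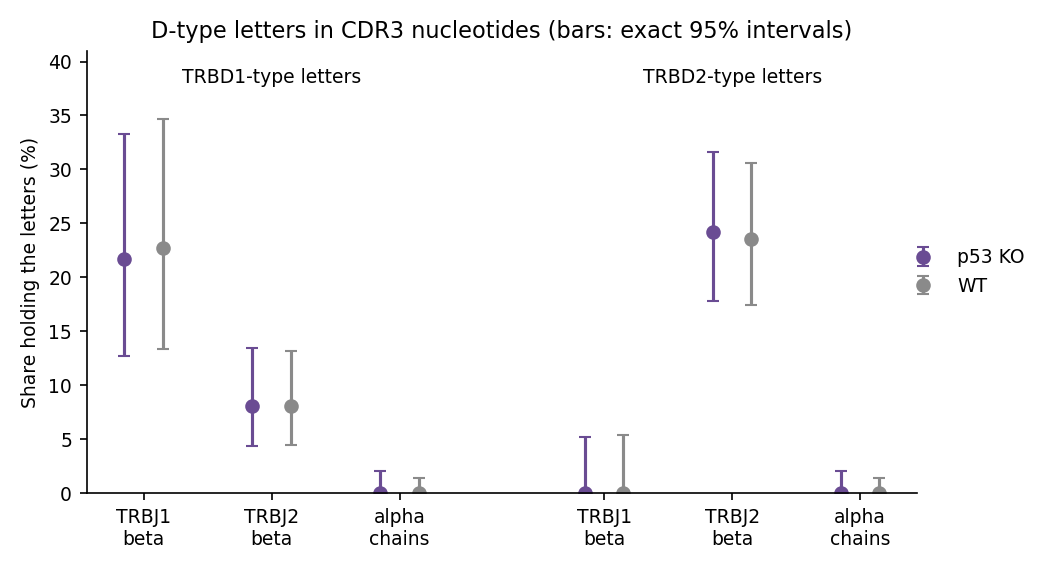
Share of chains (%, vertical axis) whose CDR3 nucleotides hold GACAGGG or GACTGGG, in TRBJ1, TRBJ2 and alpha chains, p53 KO left of WT in each pair, with exact 95% intervals as bars. GACTGGG stands at 24.2% in p53 KO and 23.6% in WT among TRBJ2 chains and at 0 among TRBJ1 and alpha chains.

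Shorter or shifted words of 5 to 7 letters gave 0 TRBJ1 clonotypes for the TRBD2-type word as well. With the shorter GACTG, 0 of 135 TRBJ1 clonotypes, 88 of 335 TRBJ2 clonotypes and 9 of 450 alpha chains of both libraries were found, and with GACAG the counts were 44, 41 and 10. The word ACTGGGG, shifted by 1 base, gave 0, 89 and 0. Long runs of G were also found in TRBJ2 chains and not in TRBJ1 chains. A run of 7 or more G was in 11 of 17 TRBD2 clonotypes in p53 KO and 19 of 19 in WT. It was in 0 of 34 TRBD1 clonotypes in p53 KO and 0 of 41 in WT, and in 23 of 179 clonotypes with no call in p53 KO and 8 of 180 in WT. Of uncalled clonotypes over both libraries, 31 of 259 with a TRBJ2 gene and 0 of 100 with a TRBJ1 gene had such a run. The D call is read from the same bases, so call and run of G are not independent.

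The D calls and the words agreed in part. Of TRBD1 clonotypes, 21 of 34 in p53 KO (61.8%) and 23 of 41 in WT (56.1%) held GACAGGG. Of TRBD2 clonotypes, 9 of 17 in p53 KO (52.9%) and 12 of 19 in WT (63.2%) held GACTGGG, and none held GACAGGG. Of the GACTGGG clonotypes, 26 of 39 in p53 KO (66.7%, 49.8% to 80.9%) and, in WT, 26 of 41 (63.4%, 46.9% to 77.9%) had no D call. Of GACAGGG clonotypes, 7 of 28 in p53 KO (25.0%, 10.7% to 44.9%) and, in WT, 6 of 29 (20.7%, 7.99% to 39.7%) had none. In each library a missing call was more frequent with the TRBD2-type word than with the TRBD1-type word, and the intervals did not overlap. All GACTGGG clonotypes had a TRBJ2 gene and GACAGGG clonotypes stood in both clusters, so word and J cluster are mixed in this comparison. Among TRBJ2 clonotypes with GACAGGG, 5 of 13 in p53 KO had no call, and 10 of 14 in WT were called TRBD1. No interval was computed for these smaller groups, so the gap between intervals is shown only for both clusters together. The words were chosen after the chains were seen, so the intervals are a description and not a test. Clonotypes with the same chain count separately, such as clonotype2 and clonotype3 in p53 KO, which hold GACTGGG and have no call. A call or a word named a D in 84 of 230 clonotypes in p53 KO (36.5%) and in 92 of 240 in WT (38.3%).

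A few chains were called TRBD1 and held GACTGGG, 4 in p53 KO and 3 in WT, all with a TRBJ2 gene. They are printed because the call and the word differ in them, with GACTGGG in capitals.
p53 KO clonotype30, TRBV10, TRBJ2-5, 2 cells: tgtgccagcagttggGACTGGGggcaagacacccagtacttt
p53 KO clonotype64, TRBV20, TRBJ2-1: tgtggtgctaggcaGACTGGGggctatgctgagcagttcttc
p53 KO clonotype166, TRBV3, TRBJ2-5: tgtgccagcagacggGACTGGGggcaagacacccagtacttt
p53 KO clonotype241, TRBV12-2+TRBV13-2, TRBJ2-4: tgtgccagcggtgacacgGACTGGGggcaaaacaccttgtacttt
WT clonotype125, TRBV5, TRBJ2-4: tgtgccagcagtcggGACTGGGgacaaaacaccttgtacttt
WT clonotype214, TRBV19, TRBJ2-7: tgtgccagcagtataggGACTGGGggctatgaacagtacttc
WT clonotype256, TRBV12-2, TRBJ2-5: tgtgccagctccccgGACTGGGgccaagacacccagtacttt
Over both libraries, GACAGGG was in 26 of 35 TRBD1 clonotypes with a TRBJ1 gene (56.7% to 87.5%) and in 18 of 40 with a TRBJ2 gene (29.3% to 61.5%). Among TRBJ2 genes it was in 1 of 11 TRBD1 clonotypes with TRBJ2-5 and in 5 of 7 with TRBJ2-7, genes picked after their values were seen. The call was the same in every cell of a chain: 43 of 43 chains found in 2 or more cells in p53 KO, over 184 cells, and 52 of 52 chains in WT, over 152 cells. Cells of 1 chain have the same CDR3 bases, from which the D call is read. Their agreement therefore does not show that the call is right.

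CDR3 loops of TRBD2 chains were on average longer than those with no call in both libraries. TRBD2 chains had 14.6 ± 0.606 amino acids in p53 KO (SD over 17 clonotypes) and 15.5 ± 1.47 in WT (19 clonotypes). TRBD1 chains had 14.4 ± 1.19 in p53 KO and 13.9 ± 1.28 in WT, and chains with no call 13.97 ± 1.43 in p53 KO and 13.75 ± 1.48 in WT. TRBD2 chains were thus 0.675 residues longer than uncalled ones in p53 KO and 1.72 longer in WT, and within the TRBJ2 cluster 0.616 longer in p53 KO and 1.70 longer in WT. All 17 TRBD2 clonotypes in p53 KO and 18 of 19 in WT had 14 or more residues. Among clonotypes with no call, 68.2% in p53 KO and 60.0% in WT did. The D call is read from bases of the same loop, so length and call are not independent, and the difference from uncalled chains is smaller than 1 SD of uncalled chains in p53 KO and larger than 1 SD in WT. TRBD2 chains were 0.206 residues longer than TRBD1 chains in p53 KO and 1.62 longer in WT. Counted by cells, the p53 KO difference was -0.967, with the 30 cells of clonotype1, whose loop has 17 residues, among the TRBD1 cells.

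Mean glycine content was highest with TRBD2, next with TRBD1 and lowest with no call in both libraries. The D call is read from the same bases that code for glycine, so call and glycine content are not independent. The same holds for neighbouring glycines and runs of G, and these values are a description only. TRBD2 loops had 2.53 ± 1.01 glycines in p53 KO and 3.16 ± 0.958 in WT. TRBD1 loops had 1.82 ± 1.06 in p53 KO and 2.02 ± 0.880 in WT, and uncalled loops 1.45 ± 1.01 in p53 KO and 1.34 ± 0.982 in WT. The p53 KO gap between TRBD2 and TRBD1, 0.706 glycines, was 0.342 within TRBJ2 chains, 0.172 by cells and 0.219 with D read from the words. The WT gap, 1.13 glycines, was 1.20 within TRBJ2 chains, 1.41 by cells and 0.640 with the words. Neighbouring glycines were in 13 of 17 TRBD2 clonotypes in p53 KO (76.5%, 50.1% to 93.2%) and, in WT, 19 of 19 (82.4% to 100%), in 29.4% of TRBD1 clonotypes in p53 KO and 36.6% in WT, and in 31.8% of uncalled clonotypes in p53 KO (25.1% to 39.2%) and 19.4% in WT (13.9% to 26.0%). By neighbouring glycines TRBD1 thus stood below uncalled chains in p53 KO and above them in WT. The longest run of G in the CDR3 nucleotides averaged 6.12 ± 1.5 bases for TRBD2 in p53 KO and 7.16 ± 0.375 in WT, against 4.29 for TRBD1 in p53 KO and 4.34 in WT. Chains that held GACTGGG and had no call averaged 4.69 bases in p53 KO and 4.92 in WT, below the TRBD2-called ones.

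**Figure D4:**
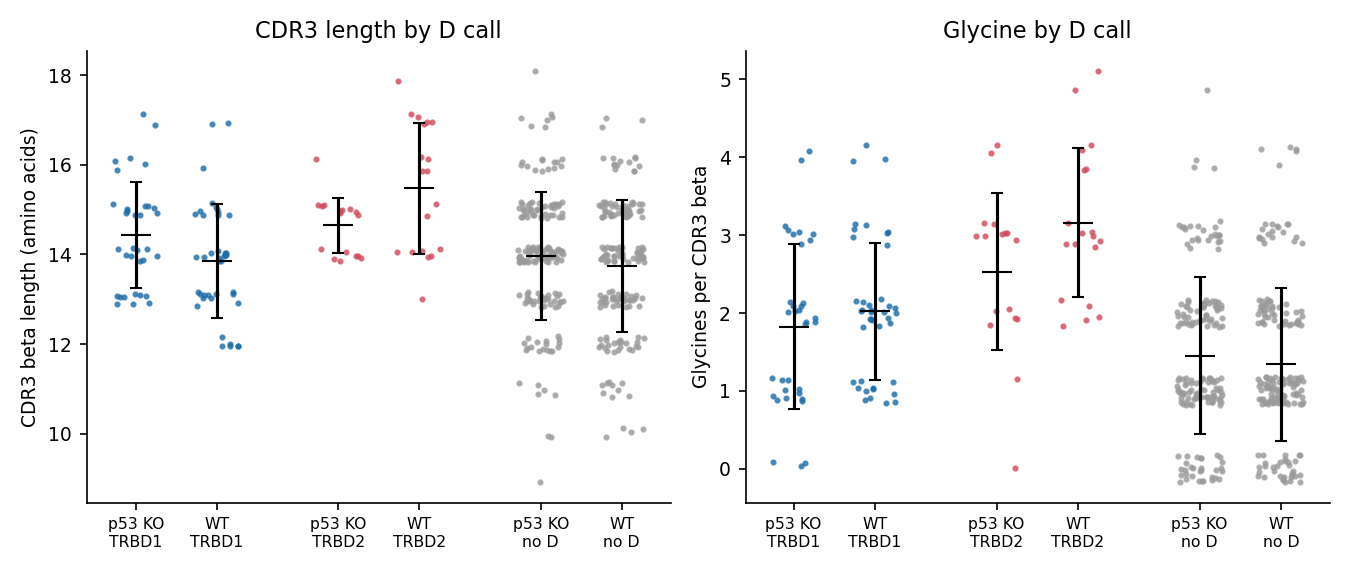
CDR3 length (amino acids, left) and glycines per CDR3 (right) of each clonotype by D call, p53 KO left of WT, with points spread sideways and slightly up and down to be seen and a mark for the mean ± SD. TRBD2 clonotypes reach means of 2.53 glycines in p53 KO and 3.16 in WT, the highest of the 3 call groups.

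The words were read in all 3 frames. In the frames labelled Asp-Trp-Gly and Asp-Arg-Gly, the word gives only the first base of the last codon. The last residue of those labels therefore need not be glycine. GACTGGG stood in the frame labelled Asp-Trp-Gly in 19 of 39 p53 KO clonotypes and 14 of 41 WT clonotypes. It coded for Leu-Gly in 8 in p53 KO and 13 in WT, and for Thr-Gly in 12 in p53 KO and 14 in WT. Mean glycines in the Asp-Trp-Gly frame were 1.63 in p53 KO and 2.29 in WT, in the Leu-Gly frame 1.38 in p53 KO and 2.46 in WT, and in the Thr-Gly frame 2.67 in p53 KO and 2.86 in WT. The Thr-Gly frame was the highest in each library, and the order of the other frames differed between the libraries. GACAGGG stood in the frame labelled Asp-Arg-Gly in 9 of 28 p53 KO clonotypes and 6 of 29 WT clonotypes. It coded for Gln-Gly in 7 in p53 KO and 9 in WT, and for Thr-Gly in 12 in p53 KO and 14 in WT. Mean glycines in the Asp-Arg-Gly frame were 0.667 in p53 KO and 1.17 in WT, in the Gln-Gly frame 2.71 in p53 KO and 1.78 in WT, and in the Thr-Gly frame 1.83 in p53 KO and 2.29 in WT. The Asp-Arg-Gly frame was the lowest in each library, and the order of the other frames differed.

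Clone sizes by segment differed between the libraries in ways that rested on few clonotypes. A clonotype was called expanded with 2 or more cells. Of TRBD2 clonotypes, 0 of 17 in p53 KO were expanded, which allows a share of up to 17.6% by 3 counts (exact bound 19.5%), against 6 of 19 in WT (31.6%, 12.6% to 56.6%). Of TRBD1 clonotypes, 4 of 34 in p53 KO (11.8%, 3.30% to 27.5%) and, in WT, 9 of 41 (22.0%, 10.6% to 37.6%) were. Among clonotypes with no call, the shares were 16.8% in p53 KO and 16.1% in WT. The TRBD2 intervals overlap. With cells counted per distinct beta CDR3 sequence in place of the clonotype identifier, 11.8% of TRBD2 chains in p53 KO and 30.0% in WT were in 2 or more cells. Without the 10 largest clonotypes of each library, the share stayed at 0 in p53 KO and was 18.8% in WT. By the word GACTGGG in place of the call, 6 of 39 clonotypes in p53 KO (15.4%) and 5 of 41 in WT (12.2%) were expanded, with WT below p53 KO. The p53 KO count includes clonotype2 (16 cells) and clonotype3 (14 cells), which have the same beta chain, printed above, and no D call.

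**Figure D5:**
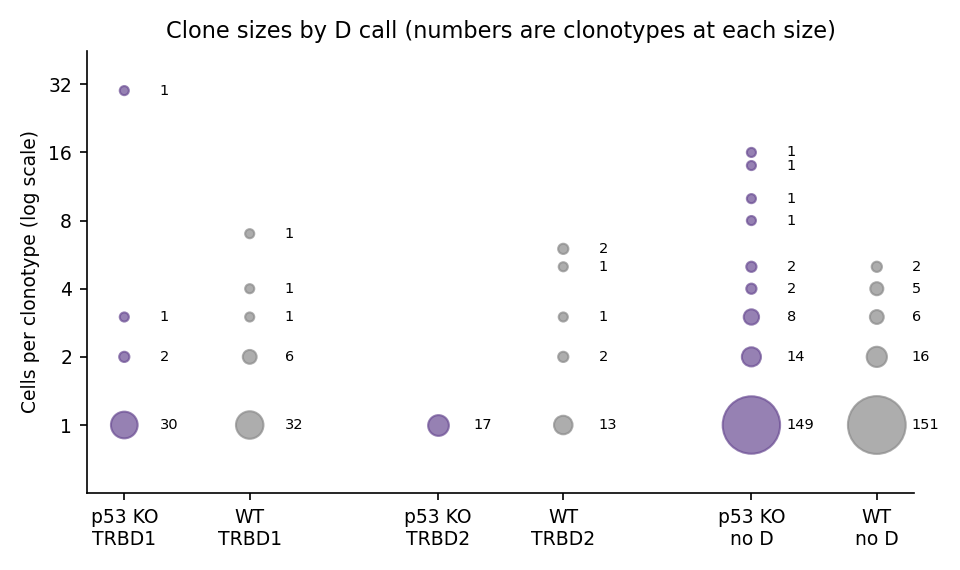
Cells per clonotype (vertical axis, log scale) by D call, p53 KO left of WT, with the number of clonotypes at each size written beside it. All 17 TRBD2 clonotype identifiers of p53 KO are of 1 cell, and the largest TRBD1 clonotype of p53 KO has 30 cells.

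The largest TRBD1 clonotype had 30 cells in p53 KO and 7 in WT, and the largest TRBD2 clonotype 1 cell in p53 KO and 6 in WT. Cells of expanded clonotypes were 37 of 67 TRBD1 cells in p53 KO (55.2%) and 26 of 58 in WT (44.8%). Of TRBD2 cells, 0 of 17 in p53 KO and 24 of 37 in WT (64.9%) were in such clonotypes. Here a cell takes the call of its clonotype's chain, so the totals differ by 1 from the 18 p53 KO and 36 WT cells counted by their own contigs. By C segment, expanded clonotypes were 7 of 69 with TRBC1 in p53 KO (10.1%) and 12 of 66 in WT (18.2%), and 27 of 161 with TRBC2 in p53 KO (16.8%) and 32 of 173 in WT (18.5%). The largest TRBC1 clonotype had 5 cells in p53 KO and 7 in WT.

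Median UMI depth was no higher in chains with a D call than in those without. It was taken over the contig with most UMIs of each clonotype, so clonotypes of more cells had more contigs to pick from. By means, TRBD2 in WT went the other way, with 7.37 UMIs against 6.56 for uncalled chains. The mean of TRBD1 in WT and those of both D calls in p53 KO were below that of uncalled chains. The median UMIs per contig were 4.5 in p53 KO and 4 in WT for TRBD1, 4 in both for TRBD2, and 6 in p53 KO and 5 in WT with no call. Counted in reads, the TRBD2 median in p53 KO was 1.16 times that of uncalled contigs, against 0.667 times in UMIs. For TRBC1 the median was 5 in both libraries, and for TRBC2 6 in p53 KO and 4 in WT. Of cells with a TRBD2 chain, 12 of 18 in p53 KO (66.7%) and 33 of 36 in WT (91.7%) also had an alpha chain. For TRBD1 these were 58 of 67 (86.6%) in p53 KO and 44 of 58 (75.9%) in WT. Over all cells with a beta chain they were 259 of 351 in p53 KO and 277 of 326 in WT. Cells of 1 clone are not independent, and clonotype1 held 30 of the 67 TRBD1 cells in p53 KO.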

How the data were processed

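The deposited contig lists of the p53 KO and the WT TCR library were analysed. Reads and UMIs per contig are whole-number counts deposited by the authors without normalization, per the file headers. The submitters' processing notes name Cell Ranger 6.1.1 and mm10. No source used here gives the version of the TCR reference behind the D and C calls. All contigs were marked productive and high-confidence.

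One TRB contig, that with most UMIs, was kept per clonotype or cell. Clonotype size is its number of cells with a TRB contig. With 1 library per genotype no test was made. The members and lists were chosen with earlier results of these data known. The largest clonotype of each pair of D call and J cluster is named, ties by identifier, and all clonotypes against locus order would be. J genes are given by D call, with the 3 V genes most frequent with each D, ties by name.

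The alternatives counted cells, every TRB contig, each CDR3 sequence once, contigs of 3 or more UMIs and paired cells. They also left out the 10 largest clonotypes or cells with 2 or more TRB contigs, and took reads in place of UMIs. The 7-letter words, their other lengths and leaving out the largest clonotype were chosen after seeing the data. A planned D search against germline sequence was not run, since that sequence was not used here. No doublet caller was run. The word search was tested on simulated data in which the whole word was put in. That covers the finding of an intact word, and not whether a word marks a D segment in trimmed chains. Scripts ran in Python 3.11.15 with scipy 1.17.1, numpy 2.4.6, matplotlib 3.10.9 and pandas 2.3.3.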

Additional observations from a re-analysis of the deposited data

How the results depend on the processing

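No paired analysis was possible because each genotype has 1 library and no test was made. Of 456 values under other settings, 439 stayed within their interval or SD, or, for UMI ratios, within 1.5 times. For a difference between D calls the band is 1 SD over clonotypes, so a large change can stay within it. The p53 KO difference in CDR3 length, TRBD1 minus uncalled, went from 0.469 to 1.56 by cells and still counted as within. The count of 439 is therefore a loose measure of stability. TRBD2 in TRBJ1 chains stayed at 0 and the agreement of C call and J cluster at 100% in every setting run. Counted by cells, p53 KO had 23.4% TRBC1, 76.4% TRBC2 and, among TRBJ2 chains, 17.5% TRBD1 (16.8% over every TRB contig). The p53 KO difference in CDR3 length, TRBD2 minus TRBD1, turned to -0.967 by cells and -0.877 over every TRB contig, where clonotype1, with a CDR3 of 17 residues, counts 30 times by cells. With reads in place of UMIs, the p53 KO ratio of medians of TRBD2 to uncalled contigs was 1.16, and the cause was not tested. Reading D from the 7-letter words gave TRBD2-type shares of 17.0% in p53 KO and 17.1% in WT, and within TRBJ2 chains 24.2% in p53 KO and 23.6% in WT. TRBD1-type shares were lower, 12.2% in p53 KO and 12.1% in WT, the reverse of the order of the calls. In TRBJ2 chains they were 8.07% in p53 KO and 8.05% in WT. Chains with neither word were 70.9% in p53 KO. Under that reading 12.2% of WT TRBD2-type clonotypes were expanded, and neighbouring glycines were in 41% of TRBD2-type clonotypes in p53 KO and 48.8% in WT. Groups of 17 and 19 TRBD2 clonotypes limit every TRBD2 value.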

Other observations

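Some cells had 2 TRB contigs, 22 in p53 KO and 14 in WT. They paired TRBC1 with TRBC2 in 12 cells in p53 KO and 5 in WT, TRBC1 with TRBC1 in 3 in p53 KO and 4 in WT, and TRBC2 with TRBC2 in 7 in p53 KO and 5 in WT. Neither chain had a D call in 15 of these cells in p53 KO and 7 in WT. In the others 1 chain had a call, TRBD1 in 4 cells in p53 KO and 1 in WT, and TRBD2 in 3 in p53 KO and 6 in WT. Whether such cells are doublets was not tested.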
